A study of Mus musculus with 11 samples.

Results

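The simple keratins Krt7, Krt8, Krt18 and Krt19 and the epithelial identity genes Epcam, Cdh1, Esrp1, Esrp2, Elf3 and Grhl2 were followed across 11 OvTrpMyc cell lines. These 10 genes were taken by name from a table of raw counts for 28284 mouse genes, and all 10 were found in it. The 11 lines came from 7 mice and comprised 7 ovary lines (F318 LOV, F318 ROV, F319 ROV, F326 ROV, F339 ROV, F364 LOV and F364 ROV), 2 uterus lines (F319 uterus and F333 uterus), 1 line from a splenic tumor (F326) and 1 from a peritoneal tumor (F361). All the mice carried Trp53-R270H and a Myc transgene placed at the p53 locus, with expression driven by the promoter of Ovgp1, a gene of the oviduct lining. The tissue was minced and grown ex vivo, the lines were untreated, and 1 library of polyadenylated RNA was sequenced from each. By the study's methods, the peritoneal tumor line did not express the mutant p53 copy. No line of a wild-type mouse was among them, and the ages of the mice are not given in the labels used here. Because each line is 1 culture and 4 of the mice gave 2 lines each, p-values measure only the spread between these lines.

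Keratins are the intermediate filament proteins of epithelial cells. Krt8 pairs with Krt18 in simple, single-layered epithelia, and Krt7 and Krt19 are further keratins of ducts and of glandular linings. Cdh1 (E-cadherin) and Epcam join neighboring epithelial cells, Esrp1 and Esrp2 direct epithelial splicing, and Elf3 and Grhl2 are transcription factors that sustain epithelial gene expression. Cells that pass through an epithelial to mesenchymal transition lose much of this program while Zeb, Snai and Twist repressors rise. Mesothelium, which covers the ovary and lines the peritoneum, expresses simple keratins together with mesenchymal genes.

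Krt7, Krt8 and Krt18 lie in a keratin cluster on chromosome 15 of GRCm38. In GENCODE M21, Krt7 covers 101411043 to 101430313 on the forward strand, Krt8 covers 101996698 to 102004482 on the reverse strand, and Krt18 covers 102028180 to 102032027 on the forward strand. Krt8 and Krt18 stand 23.7 kb apart with 0 protein-coding genes between them, whereas Krt7 is separated from Krt8 by 566 kb and 25 protein-coding genes. Krt19 is on chromosome 11, Epcam on 17, Cdh1 and Esrp2 on 8, Esrp1 on 4, Elf3 on 1 and Grhl2 on 15. Promoters of 5 of the 10 genes were present in the RefSeq table of GRCm38.p6. Those of the 3 clustered keratins, whose levels came apart between the lines, and of Elf3, a gene that differed between library numbers, are shown 5′ to 3′ up to the point where the annotated untranslated region begins. Capitals mark CAGGTG, the E-box recognized by Zeb and Snai repressors, or GGGCGG, the core of a GC box, on either strand. They are Krt7 at chr15:101412153-101412401 (forward), Krt8 at chr15:102004483-102004592 (reverse), Krt18 at chr15:102027966-102028179 (forward) and Elf3 at chr1:135258569-135258722 (reverse). The Krt7 stretch lies inside the gene as GENCODE M21 gives it, because the RefSeq start differs.
Krt7: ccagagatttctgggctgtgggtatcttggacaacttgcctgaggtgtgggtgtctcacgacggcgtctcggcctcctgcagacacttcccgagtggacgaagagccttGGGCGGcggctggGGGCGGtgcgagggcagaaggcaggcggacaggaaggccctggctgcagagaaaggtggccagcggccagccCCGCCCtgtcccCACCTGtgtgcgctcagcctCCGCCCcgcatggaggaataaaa
Krt8: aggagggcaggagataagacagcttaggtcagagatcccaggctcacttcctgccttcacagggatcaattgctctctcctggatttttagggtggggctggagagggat
Krt18: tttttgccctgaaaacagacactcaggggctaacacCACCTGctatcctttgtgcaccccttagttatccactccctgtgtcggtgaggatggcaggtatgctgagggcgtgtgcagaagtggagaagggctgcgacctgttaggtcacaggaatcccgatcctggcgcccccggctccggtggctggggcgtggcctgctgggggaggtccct
Elf3: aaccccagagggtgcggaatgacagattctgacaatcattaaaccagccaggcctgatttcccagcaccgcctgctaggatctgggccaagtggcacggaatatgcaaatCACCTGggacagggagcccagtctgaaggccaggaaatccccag

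Over the full 250 bases before the RefSeq start, CAGGTG was present on 1 or both strands in all 5 promoters examined (Krt7, Krt8, Krt18, Elf3 and Epcam), and in 17.2% of 32851 RefSeq promoters of the same length. In Krt8 it lay 106 to 111 bases before the start and so beyond the printed stretch. The RefSeq and GENCODE starts differ, and by GENCODE the Krt8 match and the Krt7 window lie inside the annotated genes. GGGCGG occurred 4 times before Krt7 and 1 time before Epcam, and 32.7% of all promoters held it. The Grhl motif AACCNGTT, TATAAA and the AP-1 motif TGANTCA, held by 1.79%, 12.4% and 6.75% of promoters, were searched on both strands and had no match in these 5. The Krt7 window had 66% G and C, against a median of 52.4% over all promoters, and those of Krt8 and Krt18 had 58% and 60.4%. A match describes the letters only, and no binding was measured in these lines.

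Levels are given as CPM, the count of a gene divided by the total count of its library and scaled to 1000000. The library totals ranged from 13580525 to 27044598 counts. In every library 71.9% to 79.6% of the counts between 1 and 20 were even numbers, so both mates of a read pair seem to have been counted. Wilson 95% intervals were therefore computed on read pairs, and 6 counts (3 pairs, 0.222 to 0.442 CPM) were taken as what a count of 0 still allows. These cover counting error only. The libraries numbered 1 to 7 in the labels, which hold 5 ovary and both tumor lines, had 8.06% to 15.6% of their counts on a list of 30 skeletal muscle genes. The libraries numbered 8 to 11, which hold both uterus lines with F318 LOV and F339 ROV, had 0.244% to 1.40%. The sum of 4 genes of the Y chromosome (Kdm5d, Eif2s3y, Uty and Ddx3y) moved with them. It was 128 to 174 CPM in the first set and 1.75 to 19.2 CPM in the second, although ovary and uterus lines come from females. Because both uterus lines are in the second set, each comparison of uterus with ovary was also made within it. In bulk libraries, fewer cells of a type and less RNA per cell cannot be told apart.

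A gene was taken as kept at 1 CPM or more. By that measure no line kept the whole set, and 41 of the 110 values (10 genes in 11 lines) were kept. F319 ROV kept 7 of the 10 genes, F364 ROV, F361 and F339 ROV kept 5, F318 ROV kept 4, and F318 LOV kept only Krt19. F364 LOV, F326 ROV and both uterus lines kept 3 each, and the F326 splenic line kept Krt18 and Elf3. The order of the lines depended on the measure. At more than 3 counts, a laxer one, F361 had all 10 genes, F339 ROV 9, and F319 ROV and F326 ROV 8 each. Of all 28284 genes, 47.1% to 51.1% reached 1 CPM in a line, and the share of the 10 genes was below that of all genes in 7 lines and above it in F364 ROV, F361, F319 ROV and F339 ROV. The levels were low: only 11 of the 110 values reached 5 CPM, 8 reached 10 CPM, and 24 were 0 counts. All 8 values above 10 CPM belonged to keratins.

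**Figure D1:**
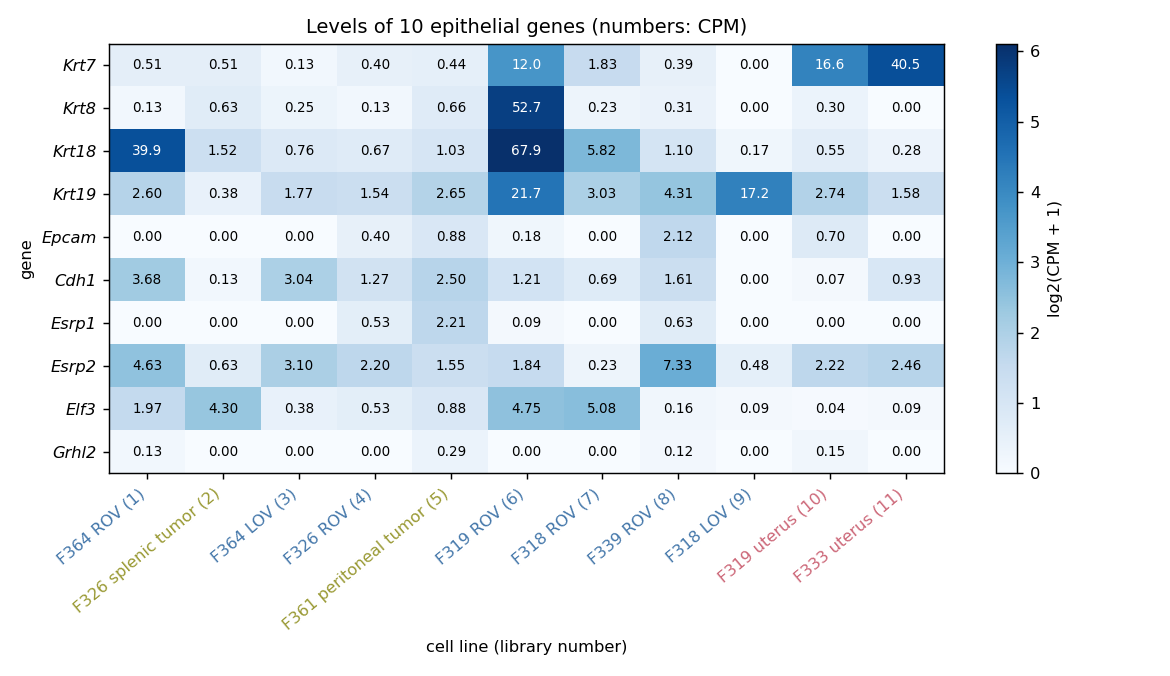
Level of each of the 10 genes (rows) in each of the 11 lines (columns, with the library number in brackets; blue labels are ovary, olive tumor and red uterus lines). Numbers are CPM and the shade is log2(CPM + 1), where 1 is the pseudocount. The dark cells are keratins in F319 ROV, F364 ROV, F318 LOV and the uterus lines, and the Grhl2 row stays under 0.30 CPM.

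Krt8, the type II keratin of simple epithelia, reached 1 CPM in 1 line. F319 ROV had 1177 counts, or 52.7 CPM (95% interval 48.6 to 57.1). The next line, F361, had 9 counts and 0.663 CPM, the F326 splenic line 0.633, F339 ROV 0.314, the F319 uterus line 0.296, F364 LOV 0.253, F318 ROV 0.228, F326 ROV 0.134 and F364 ROV 0.127 CPM. F318 LOV and F333 uterus had 0 counts, which allows up to 0.262 and 0.279 CPM. F319 ROV therefore stood 79.5-fold above F361, and the intervals of the other 10 lines overlapped. The pseudogene Krt8-ps, which can share reads with Krt8, had 127 counts in F319 ROV (5.69 CPM), so a part of the Krt8 signal may have been placed there.

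Krt18, the type I partner of Krt8, was high in 2 lines and above 6 counts in 7 others. F319 ROV had 67.9 CPM of it (63.2 to 72.9) and F364 ROV had 39.9 CPM (35.7 to 44.5). F318 ROV followed at 5.82 CPM (4.43 to 7.65), then the F326 splenic line at 1.52, F339 ROV at 1.10, F361 at 1.03, F364 LOV at 0.759, F326 ROV at 0.668, the F319 uterus line at 0.555, the F333 uterus line at 0.279 and F318 LOV at 0.175 CPM. The first 3 lines had separate intervals, whereas neighbors in the order below F318 ROV did not differ beyond counting error. The 2 partners came apart in F364 ROV, which had 629 counts of Krt18 and 2 counts of Krt8. Per kilobase of merged exons, Krt18 reached 47.2 CPM and Krt8 26.9 CPM in F319 ROV.

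Krt19, a short type I keratin without a tail domain, was the most widely kept gene, at 1 CPM or more in 10 of 11 lines. F319 ROV had the highest level, 21.7 CPM (19.1 to 24.6), and F318 LOV had 17.2 CPM (14.9 to 19.7), so these highest values did not differ beyond counting error. The others were F339 ROV at 4.31, F318 ROV at 3.03, F319 uterus at 2.74, F361 at 2.65, F364 ROV at 2.60, F364 LOV at 1.77, F333 uterus at 1.58 and F326 ROV at 1.54 CPM. The F326 splenic line was lowest, at 0.380 CPM. F318 LOV thus carried Krt19 with 0 counts of Krt7, Krt8, Epcam and Cdh1.

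Krt7, a type II keratin of simple and glandular epithelia, showed another order. The uterus lines were highest, with 873 counts or 40.5 CPM in F333 (36.9 to 44.5) and 449 counts or 16.6 CPM in F319 uterus (14.5 to 18.9). F319 ROV followed at 12.0 CPM (10.1 to 14.2) and F318 ROV at 1.83 CPM (1.12 to 2.97). The others were F364 ROV at 0.507, the F326 splenic line at 0.506, F361 at 0.442, F326 ROV at 0.401, F339 ROV at 0.392, F364 LOV at 0.127 and F318 LOV at 0 CPM. The first 4 lines had separate intervals, and the lower 7 did not differ beyond counting error. Per kilobase of merged exons the highest Krt7 level was 5.75 CPM in F333 uterus, and 9.90 CPM per kilobase of its principal transcript. An antisense gene, Gm671, overlaps the Krt7 locus over 1269 bases, and the strand setting of the count is not given in the sources used here.

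The Krt7 signal of the uterus lines came without Krt8 and Krt18. In F333 uterus, 873 counts of Krt7 stood beside 0 of Krt8 and 6 of Krt18, and in F319 uterus 449 counts stood beside 8 and 15. In F319 ROV, the ovary line of the same mouse, 269 counts of Krt7 stood beside 1177 of Krt8 and 1516 of Krt18. Krt19 was at 74 counts in F319 uterus and 34 in F333 uterus. Both uterus lines thus held Krt7 above, and Krt18 below, the level of the F319 ROV line.

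**Figure D2:**
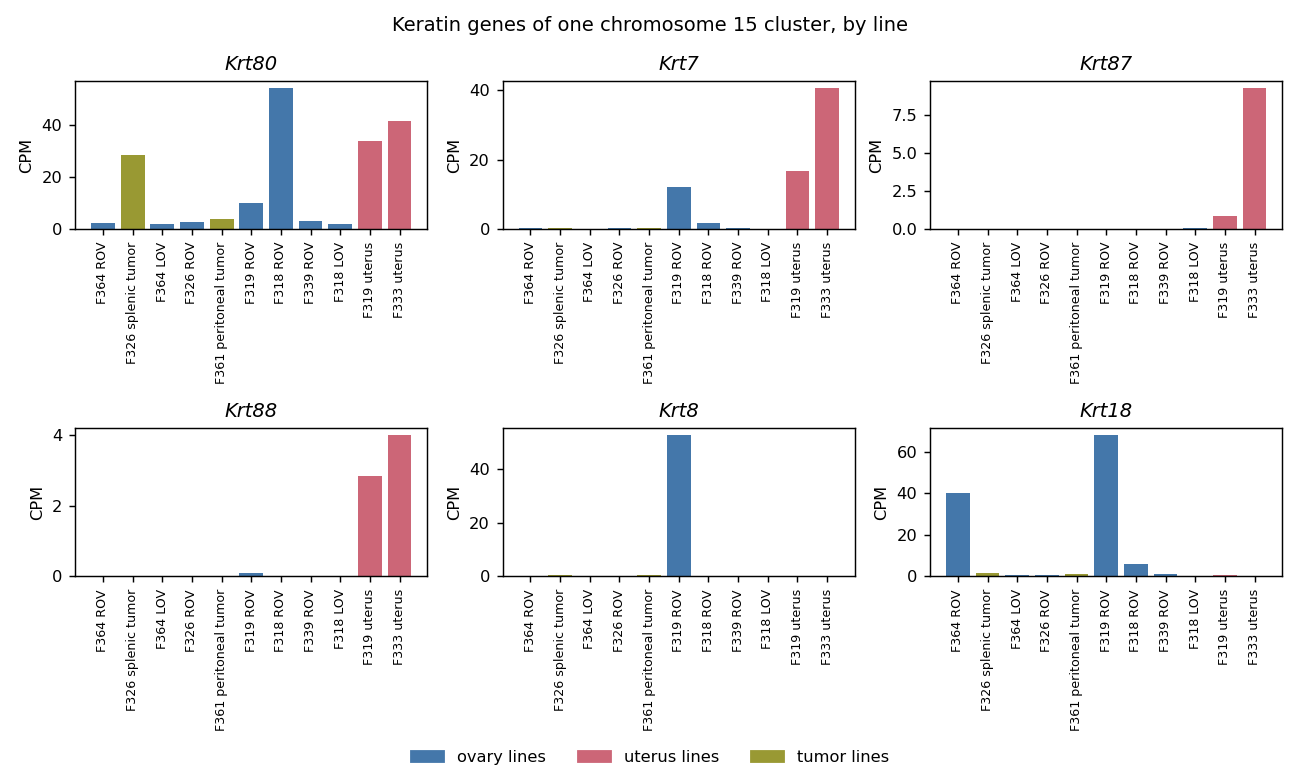
Level in CPM (vertical axes, each from 0 and with its own scale) of 6 keratin genes of the chromosome 15 cluster in each of the 11 lines; blue bars are ovary, red uterus and olive tumor lines. Krt7, Krt87 and Krt88 are highest in the uterus lines, Krt80 is also high in F318 ROV and the F326 splenic line, and Krt8 is high in F319 ROV only.

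Krt87 (chr15:101431038-101438804, reverse strand) and Krt88 (chr15:101447744-101453907, forward strand), type II keratins of the hair keratin group, are the next protein-coding genes after the end of Krt7. Krt88 had 77 counts (2.85 CPM) in F319 uterus and 86 counts (3.99 CPM) in F333 uterus, 0.0896 CPM in F319 ROV and 0 counts in the other 8 lines. In turn, Krt87 had 24 counts (0.887 CPM) and 199 counts (9.24 CPM) in the uterus lines, 0.0873 CPM in F318 LOV and 0 counts elsewhere. Related keratin genes may share reads, and how alike these sequences are was not measured, so the value of each alone is uncertain. Krt80, on the other side of Krt7, did not separate the groups. F319 uterus had 33.8 CPM and F333 uterus 41.4 CPM of it, beside 54.2 CPM in F318 ROV, 28.6 CPM in the F326 splenic line, 9.94 CPM in F319 ROV and 1.96 to 3.90 CPM in the other 6. The genes beside Krt8 and Krt18 were Krt79, at most 8.69 CPM (F361), Krt78, at most 1.99 CPM (F361), and the widely expressed Eif4b and Tns2, at 431 to 1116 and 74.0 to 363 CPM.

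Among the adhesion genes, Cdh1 was low in every line. It was at 3.68 CPM in F364 ROV, 3.04 in F364 LOV, 2.50 in F361, 1.61 in F339 ROV, 1.27 in F326 ROV and 1.21 in F319 ROV. It was at 0.928 CPM in F333 uterus, 0.685 in F318 ROV, 0.127 in the F326 splenic line and 0.0740 in F319 uterus, with 0 counts in F318 LOV. F319 ROV, the line with the highest simple keratins, thus ranked only in the middle for E-cadherin. Epcam was kept in F339 ROV alone, at 54 counts or 2.12 CPM (1.46 to 3.08). F361 had 0.884, F319 uterus 0.703, F326 ROV 0.401 and F319 ROV 0.179 CPM, and the other 6 lines had 0 counts.

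The splicing factors also came apart. Esrp2 was kept in 8 lines, at 7.33 CPM in F339 ROV, 4.63 in F364 ROV, 3.10 in F364 LOV, 2.46 in F333 uterus, 2.22 in F319 uterus, 2.20 in F326 ROV, 1.84 in F319 ROV and 1.55 in F361. It was lowest in the F326 splenic line (0.633), F318 LOV (0.480) and F318 ROV (0.228 CPM). Its gene overlaps the widely expressed Nfatc3 over 219 bases. Esrp1 was kept only in F361, at 2.21 CPM, with 0.627 CPM in F339 ROV, 0.534 in F326 ROV, 0.0896 in F319 ROV and 0 counts in the other 7 lines.

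Of the transcription factors, Elf3 was highest in F318 ROV at 5.08 CPM (3.74 to 6.74), F319 ROV at 4.75 (3.63 to 6.21) and the F326 splenic line at 4.30 (3.08 to 6.01), which did not differ beyond counting error. F364 ROV had 1.97, F361 0.884, F326 ROV 0.534 and F364 LOV 0.380 CPM. F339 ROV had 4 counts, F318 LOV 2, F333 uterus 2 and F319 uterus 1, at or under what a count of 0 allows. An antisense gene, Gm26642, overlaps Elf3 over 4994 bases and had at most 24 counts in a line. Grhl2 was at or under what a count of 0 allows in all 11 lines, with a highest value of 0.295 CPM in F361 and 0 counts in 7 lines. Its relative Grhl3 was also under 1 CPM throughout, whereas Grhl1 was kept in 8 lines and reached 10.8 CPM in F364 LOV. Per kilobase of merged exons the highest values were 2.29 CPM for Elf3, 1.69 for Esrp2, 0.965 for Epcam, 0.804 for Cdh1, 0.350 for Esrp1 and 0.0342 for Grhl2, all below the 5.75 to 47.2 CPM of the 4 keratins.

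The lines of one mouse shared some of these genes and not others. F364 ROV had 39.9 CPM of Krt18 against 0.759 in F364 LOV, while Cdh1 (3.68 and 3.04) and Esrp2 (4.63 and 3.10) were alike in level. F318 ROV had 5.82 CPM of Krt18 and 5.08 of Elf3, against 0.175 and 0.0873 in F318 LOV, which in turn had 17.2 CPM of Krt19 against 3.03. In mouse F319 the ovary line had 52.7 CPM of Krt8 and 67.9 of Krt18, and the uterus line 0.296 and 0.555, while Krt7 (12.0 and 16.6) and Esrp2 (1.84 and 2.22) were high or kept in both. In mouse F326 the splenic line had 4.30 CPM of Elf3 and the ovary line 0.534, while Krt19 was 0.380 and 1.54. The libraries of F318 and F319 are divided between numbers 1 to 7 and 8 to 11, so in those mice the line and the library number cannot be told apart.

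The simple keratins of F319 ROV came with mesothelial genes. The surface proteins Msln (mesothelin), Upk3b, Upk1b and Lrrn4 were at 130, 246, 161 and 81.3 CPM there. Their sum was 619 CPM, against 24.9 CPM in F364 ROV, 6.28 in F326 ROV and at most 3.94 in the other 8 lines. The mesothelial list also holds Krt19, and of its other 11 genes 10 reached 1 CPM in F319 ROV. Among them were Wt1 at 72.7, Gpm6a at 31.0, Bnc1 at 21.4 and Muc16 at 5.06 CPM, and the calcium-binding protein Calb2 was at 0 counts. Bnc1 was also at 9.28 CPM in F319 uterus, the line of the same mouse, and at most 0.442 CPM elsewhere. F364 ROV, next for Krt18, was also next for the sum of the 4 surface proteins, with Upk3b at 16.5 CPM, but not for every gene of the list. F326 ROV, with 0.668 CPM of Krt18, had 67.2 CPM of Wt1 and 56.6 of Podxl (podocalyxin), against 65.6 and 28.7 CPM in F364 ROV. A list of granulosa genes also holds Krt18. Of its other 7 genes, 6 reached 1 CPM in F326 ROV, 4 in F364 ROV and 3 in F319 ROV, with 1 to 6 over all lines. Nr5a1 was at 38.4, 18.6 and 0.358 CPM in these lines, in that order, Foxl2 at 7.54, 7.23 and 0.716, and Inha at 32.1, 10.1 and 5.19. Of 11 oviduct markers, Epcam among them, 1 to 6 reached 1 CPM in a line. Pax8 was at 3.04 CPM in F319 ROV and under 1 CPM elsewhere, and Pax2 and Wfdc2 were under 1 CPM in every line. In turn, Emx2 was at 1.77 to 203 CPM, and Ovgp1, whose promoter drives the transgene, was at 0.829 to 6.52 CPM. Sox17 was at 13.4 to 55.3 CPM in libraries 1 to 7 and at most 0.743 CPM in libraries 8 to 11. Of 11 uterine epithelial markers, 0 to 6 reached 1 CPM. Wnt7a, Sprr2f and Calb1 were under 1 CPM in all 11 lines, the uterus lines included. Msx1 was highest in F333 uterus at 12.4 CPM, and Muc1 was at 1.11 CPM there and 1.29 CPM in F319 uterus. The secreted protein Lcn2 was at 0.557 CPM in F333 uterus and 1.96 CPM in F319 uterus and reached 135 CPM in F318 ROV.

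Keratins of stratified epithelia had another distribution. The sum of Krt1, Krt5, Krt10, Krt14 and Krt15 was 179 CPM in F361, 74.7 in F326 ROV and 2.27 to 13.7 CPM in the other 9 lines. F361 had 48.7 CPM of Krt5, 45.1 of Krt10, 39.5 of Krt14 and 28.5 of Krt15, beside 0.442 to 2.65 CPM of Krt7, Krt8, Krt18 and Krt19. Of 39 keratin genes in the table, 22 reached 1 CPM in some line, and 13 of those were highest in F361. The desmosome gene Dsp was also highest in F361, at 20.6 CPM, with Esrp1 at 2.21. F326 ROV and F364 ROV shared junction and membrane genes that F361 had at 1.03 CPM or less: the desmoglein Dsg2 was at 25.1 and 37.3 CPM, the tricellular junction protein Lsr at 20.2 and 14.97, and Mal2 at 16.2 and 10.3.

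**Figure D3:**
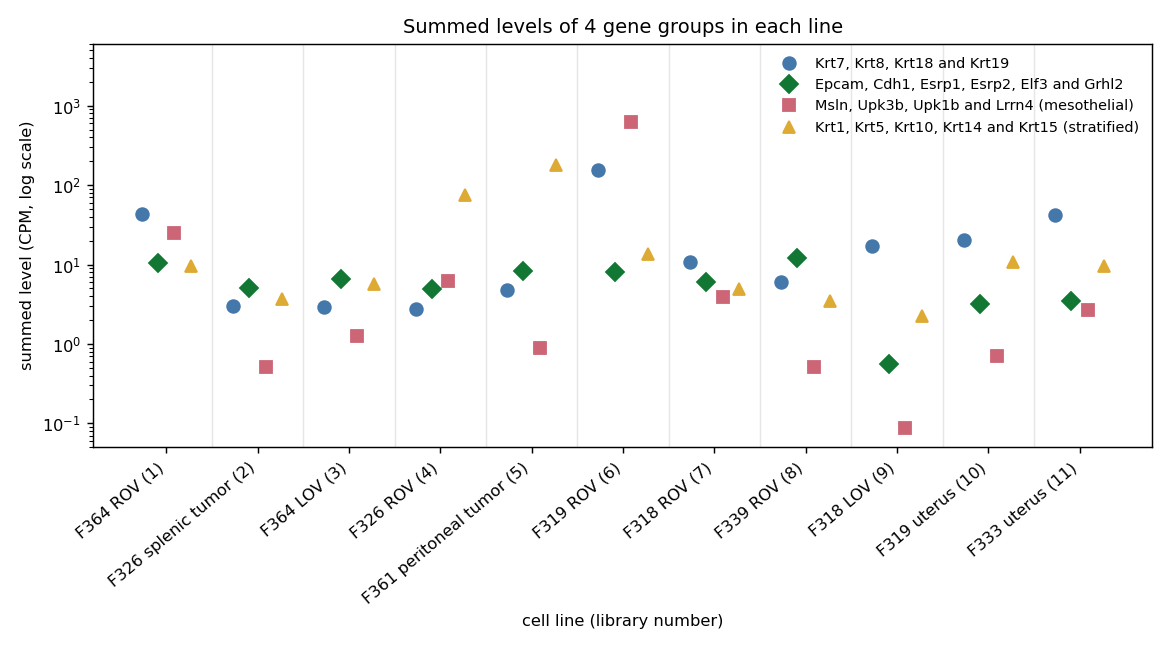
Summed level in CPM (log scale) of 4 gene groups in each line, with the library number in brackets. Blue circles are the 4 simple keratins, green diamonds the other 6 epithelial genes, red squares 4 mesothelial genes and yellow triangles 5 stratified keratins. The simple keratins and mesothelial genes are highest in F319 ROV (154 and 619 CPM), and the stratified keratins in F361 (179 CPM).

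Other epithelial lists were kept to unequal extents. Of 14 tight junction genes, 3 to 5 reached 1 CPM in a line, among them the scaffold Tjp1 at 19.7 to 151 CPM and the adhesion protein F11r at 12.6 to 112 CPM. The claudins Cldn3, Cldn4, Cldn6 and Cldn7 and Ocln, which seal epithelia, were under 1 CPM in all 11 lines. Other claudins were not: Cldn1 reached 1 CPM in 7 lines, at most 4.30 CPM in F319 ROV, Cldn23 was at 1.88 CPM in F318 LOV and 1.85 in F319 uterus, and Cldn5, a claudin of endothelium, was at 0.0873 to 125 CPM. Of 12 desmosome genes, 3 to 9 reached 1 CPM, with 9 in F364 ROV, F326 ROV and F361, and Jup (plakoglobin) was at 40.6 to 464 CPM. The surface glycoprotein Cd24a was at 13.9 to 263 CPM. Of 7 adherens junction genes, 5 to 7 reached 1 CPM. Among these, Ctnnb1 (beta-catenin) was at 220 to 736 CPM and Nectin4 at most at 2.54 CPM. The placental cadherin Cdh3 was at 87.6 CPM in F333 uterus, 82.6 in F319 ROV, 78.4 in F339 ROV and 65.1 in F318 LOV, in lines with 0.928, 1.21, 1.61 and 0 CPM of Cdh1. F364 ROV, highest for Cdh1 at 3.68 CPM, followed with 42.3 CPM of Cdh3, and F319 uterus, with 0.0740 CPM of Cdh1, had 8.32. The repressor Zeb1 was at 42.3 to 118 CPM and Vim (vimentin) at 214 to 3504 CPM, so mesenchymal genes were present in every line, F319 ROV included (70.1 and 1030 CPM).

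The uterus lines were compared with the ovary lines with edgeR's quasi-likelihood test. After the filter on low counts 17446 genes were tested, and 8 of the 10 genes passed it, without Krt8 and Grhl2. With a Benjamini-Hochberg adjusted p under 0.05, 0 of the 8 were called, beside 0 of all genes (0%). At an unadjusted p under 0.05 there were 2308 genes (13.2%), and DESeq2 called 1297, among them 3 of the 8. These were Elf3 and the keratins Krt7 and Krt18, for which the call is a description and no test, since their pattern chose them. The ovary lines had 0, 0.401 and 12.0 CPM of Krt7 (lowest, median and highest) and the uterus lines 16.6 and 40.5 CPM, so both uterus lines lay above all 7 ovary lines, as for 5.04% of genes. None of the 8 tested genes lay below all ovary lines in both uterus lines, as 3% of genes did. Its log2 fold change, given as a description because the gene was chosen for this pattern, was 3.56 (SE 1.51). Krt18 was at 0.279 and 0.555 CPM against 0.175, 1.10 and 67.9 CPM, the groups overlapped, and the log2 fold change was −5.56 (SE 2.72). Among libraries 8 to 11 alone these were 7.19 for Krt7 and −0.60 for Krt18, so the Krt18 difference rested on ovary lines among libraries 1 to 7. Without F319 ROV, Krt7 stood at 5.58, and with the mouse as a block, which rests on F319 alone, at 0.19.

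The other 6 tested genes overlapped between uterus and ovary. The log2 fold change of Krt19 was −1.92 (95% interval −4.47 to 0.64, adjusted p = 0.387 by edgeR), that of Cdh1 −1.92 (−5.49 to 1.64, 0.490), that of Esrp2 −0.46 (−2.85 to 1.93, 0.802) and that of Epcam −0.26 (−4.75 to 4.22, 0.943). Intervals this wide leave large differences in either direction undetected. Esrp1 had 0 counts in both uterus lines and a mean of 0.179 CPM in the ovary lines, below what a count of 0 allows, so no fold is given. Elf3 had 3 counts in the uterus lines together and 246 in the ovary lines, a ratio of CPM of 0.0338 (counting interval 0.00241 to 0.148). It passed the filter through the ovary lines alone, and its adjusted p was 0.359 by edgeR and 0.0319 by DESeq2. With a term for the library number its log2 fold change went from −4.89 to −0.81, and within libraries 8 to 11 it did not pass the filter. Within those libraries the log2 fold changes of Krt19, Cdh1, Esrp2 and Epcam were −2.33, −0.60, −0.70 and −1.60, and edgeR called none of them.
Krt88 and Krt87, named as neighbors of Krt7, had at most 2 counts in any line outside the uterus. They passed the filter through the uterus lines alone, and edgeR called neither. Their log2 fold changes of 7.26 and 7.93 are therefore given as descriptions, without a p-value. The adjusted p of Krt80 was 0.428 by edgeR, with a log2 fold change of 1.67, and 0.0215 by DESeq2.

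**Figure D4:**
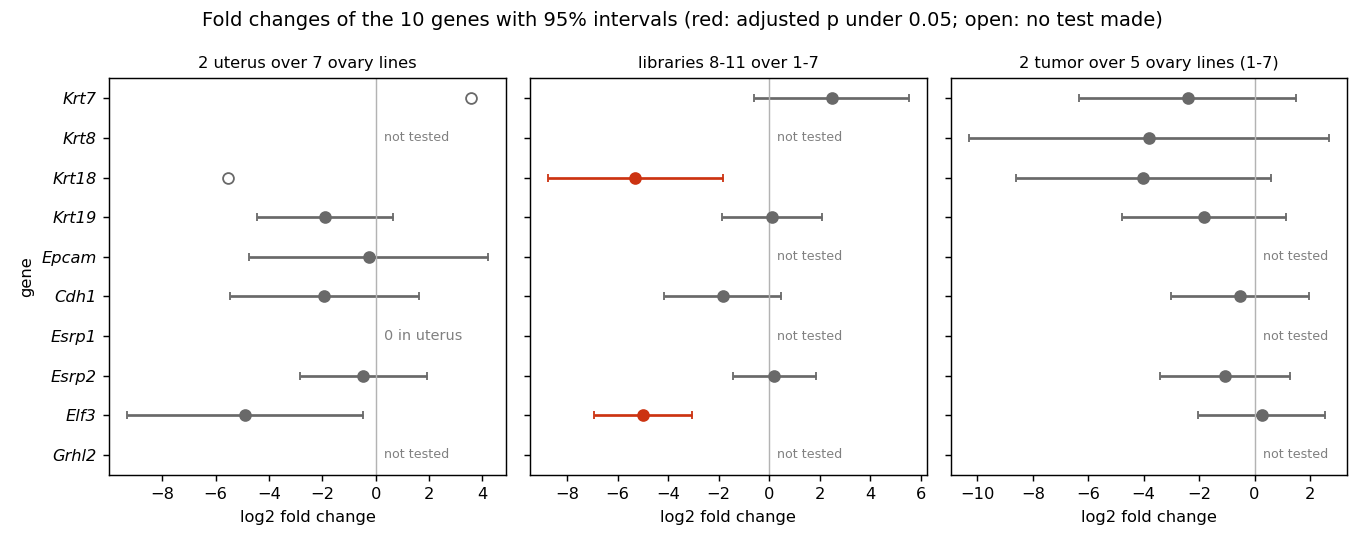
Log2 fold change (horizontal axes, with 95% intervals) of each of the 10 genes in 3 comparisons: 2 uterus over 7 ovary lines, libraries 8 to 11 over 1 to 7, and 2 tumor over 5 ovary lines. Red points had an edgeR adjusted p under 0.05, which holds for Krt18 and Elf3 in the middle panel, where Krt18 is a description only. Open points are descriptions without a test, and genes that could not be tested are named as such.

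The library numbers, which separate the libraries by their muscle counts, were compared in the same way over all 11 lines. Of 15954 genes tested, 9337 (58.5%) were called, 28.6% higher and 29.9% lower in libraries 8 to 11. Of the 10 genes, 6 were tested and 2 of them, Elf3 and Krt18, were lower. Krt8 did not pass the filter. With no filter it also passed the threshold (log2 fold change −5.81), and F319 ROV, in libraries 1 to 7, was the 1 line with 1 CPM or more of it. Elf3 was at 0.0370 to 0.157 CPM in libraries 8 to 11 and at 0.380, 1.97 and 5.08 CPM (lowest, median and highest) in libraries 1 to 7, with no overlap, as for 17.1% of genes, and none of the 6 lay wholly above, as 26.1% of genes did. Its ratio was 0.0336 (counting interval 0.00994 to 0.0834), and its log2 fold change −4.99 (SE 0.89, edgeR adjusted p = 0.000671). With 1 to 4 counts in each of libraries 8 to 11, Elf3 passed the filter through libraries 1 to 7 alone. With no filter its adjusted p by edgeR was 0.000704. Krt18 was at 0.175 to 1.10 CPM against 0.668, 1.52 and 67.9 CPM, so the sets overlapped, with a log2 fold change of −5.29 (SE 1.59). Both uterus lines, whose pattern of Krt8 and Krt18 chose these genes, are in libraries 8 to 11. For Krt8 and Krt18 the calls over all 11 lines are therefore descriptions and no test. Among the ovary lines alone, where 40.7% of genes were called, Elf3 was called (log2 fold change −4.57) and Krt18 was not (−5.48, edgeR adjusted p = 0.0846). With the mouse as a block, which left only F318 and F319 to compare the numbers, 19% of genes were called. Elf3 was again called (−6.41, edgeR adjusted p = 0.0306) and Krt18 was not (−6.38). The other adjusted p-values by edgeR were 0.148 for Krt7, 0.154 for Cdh1, 0.833 for Esrp2 and 0.930 for Krt19, and Epcam, Krt8, Esrp1 and Grhl2 did not pass the filter. The part of the muscle counts and of the Y-linked counts in these differences was not tested. All 29 tested genes of the muscle list were lower in libraries 8 to 11, as were 6 of 8 endothelial and 6 of 8 macrophage genes.

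Around these genes, other epithelial lists also had lower members in libraries 8 to 11. They numbered 4 of 8 tested keratins, 5 of 7 desmosome genes, 4 of 7 epithelial transcription factors and 2 of 4 surface proteases and glycoproteins, against 29.9% of all genes. The median log2 fold changes of these lists were −2.68, −2.05, −2.19 and −2.60, against 0.03 over all genes tested. Of 5 tested tight junction genes 1 was lower and 1 higher (median 0.43), and of 4 polarity and apical membrane genes 2 were lower and 1 higher (median −0.71). Among the lower genes were Krt5 and Krt15, the desmosome gene Perp, the squamous factor Trp63, the factors Sox17 and Foxa2 and the junction gene Lsr. Sox17 was highest in F364 LOV (55.3 CPM), as were the endothelial genes Cdh5 (117) and Cldn5 (125), while Pecam1 and Tie1 were highest in other lines. Which cells carried Sox17 was not tested. Each of the keratin, desmosome and transcription factor lists had 1 higher member: the keratin Krt13 (log2 fold change 3.98), the desmosome gene Pkp2 (1.93) and the factor Gata3 (1.70). Of 7 tested adherens junction genes, 4 were higher and 0 lower. The repressors Zeb2 (1.52), Snai1 (2.58), Snai2 (3.40) and Twist1 (2.13) were higher, as were 6 of 7 repressors and 7 of 12 mesenchymal genes, against 28.6% of all genes, with list medians of 2.13 and 1.93. Among the ovary lines alone, 2 repressors and 4 mesenchymal genes were called higher, beside 18.6% of all genes, with 22.1% lower. The calls for Snai1, Twist1, Gata3, Krt5, Krt15 and Krt13 were lost there, at log2 fold changes of 2.83, 1.61, 1.80, −5.23, −6.89 and 3.54. With the mouse as a block, 5.45% of genes were higher and 13.5% lower. Of the lists above, 3 epithelial transcription factors, 1 desmosome gene and 1 surface protease or glycoprotein were then lower, Pkp2 was higher, and no repressor, mesenchymal gene, adherens junction gene or other keratin was called. Zeb1 was the tested repressor that was not called over all lines.

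The tumor lines, both numbered 1 to 7, were compared with the 5 ovary lines of those numbers, to ask whether lines from the splenic and peritoneal tumors differed from ovary lines. Of 16299 genes tested, 0 (0%) were called by edgeR, 1636 (10%) had an unadjusted p under 0.05, and DESeq2 called 406. Of the 10 genes, 7 were tested, and DESeq2, which gave no adjusted p for Krt8 and Krt19, also called 0 of them. Krt18 was at 1.03 and 1.52 CPM in the tumor lines and at 0.668, 0.759, 5.82, 39.9 and 67.9 CPM in the ovary lines, with a log2 fold change of −4.01 (95% interval −8.60 to 0.59, edgeR adjusted p = 0.530). Both tumor lines lay within the range of the ovary lines, and the groups overlapped for all 7 tested genes, while 4.28% of genes were wholly above and 12.7% wholly below. Krt8 (−3.81, adjusted p = 0.646 by edgeR), Krt7 (−2.41, 0.636) and Krt19 (−1.83, 0.637) were not called either. Cdh1 (−0.53, 0.874), Esrp2 (−1.08, 0.714) and Elf3 (0.26, 0.939 by edgeR) lay nearer to 0, and the interval for Elf3 ran from −2.04 to 2.56. With the mouse as a block, which rests on F326 alone, Cdh1 went to −3.17 and Elf3 to 3.08, and edgeR called neither (adjusted p = 0.235 and 0.309). Of the tested genes of all other lists, edgeR called 0 of 136 in the tumor comparison and 0 of 139 in the uterus comparison. At an unadjusted p under 0.05 these were 17 and 32, and DESeq2 called 10 and 37.

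The genes whose pattern over the 11 lines was most like that of Krt7 and Krt8 were listed by Pearson's r of log2(CPM + 1) among 17317 genes. For Krt7 these were Nppb (0.952), Gm42487 (0.863), Gipc2 (0.862), Krt88 (0.861) and Gm7721 (0.858). The uterus lines had 2.74 and 3.39 CPM of Nppb, a natriuretic peptide gene, while F319 ROV had 0.985 and the other lines at most 0.262 CPM. For Krt8 they were Upk1b (0.951), Gpm6a (0.936), Neto1 (0.934), Lrrn4 (0.933) and Msln (0.931), of which 4 are on the mesothelial list. These values describe 11 lines, some from the same mouse, and 1 high line can set an r. Between the genes themselves, r was 0.683 for Krt8 and Krt18, 0.702 for Krt18 and Elf3, 0.718 for Esrp1 and Grhl2 and 0.650 for Epcam and Esrp1, but 0.330 for Krt7 and Krt8 and 0.110 for Krt7 and Krt18.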

How the data were processed

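The authors sequenced directional polyadenylated RNA libraries as read pairs, aligned them with RNA STAR to GRCm38 (Ensembl release 86), removed duplicates with SAMtools RmDup, and counted reads with featureCounts. The counts per gene were deposited as raw values. Versions, strand setting and pair counting are not given in the sources used here. Removing duplicates lowers the counts of abundant genes. Groups were taken from sample titles, and library numbers from descriptions.

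CPM, per-kilobase levels over GENCODE M21 exons and Wilson 95% intervals were computed from the counts. Fits used edgeR 4.0.16 in R 4.3.3 (filterByExpr, TMM factors, glmQLFit, Benjamini-Hochberg over all genes tested, threshold 0.05), and DESeq2 1.42.0 as an alternative. Other steps used Python 3.11.15. The fits were checked on simulated counts. Alternatives were other size factors, no filter, leaving out muscle genes or 1 line, a term for the library number, only libraries 8 to 11, only ovary lines, and summed lines of 1 mouse. Halving the counts for read pairs and the mouse as a block, with mice taken from sample titles, were chosen after seeing the data.

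The genes and lists were chosen with earlier results of these data known. Named genes were all 10 members, and from each other list the 3 highest in any line, those at 5 CPM or more and 5 times the next line, and those called, plus the neighbors of the keratins and the 5 genes most like Krt7 and Krt8. Stratified keratins, Dsg2, Mal2, Pax8, Grhl3, claudins and other list genes outside this rule were named after their values were seen. List genes without a row in the table, such as Ovol2 and Cdx2, were not analysed here. 1 further list gene is not reported here.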

Additional observations from a re-analysis of the deposited data

Results flagged for a closer look

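Within the 7 ovary lines, 3 of the 10 genes had 1 line far from the others, by a gap in log2(CPM + 1) above Dixon's 95% critical value for 7 samples. Krt8 was at 52.7 CPM in F319 ROV (gap 0.932 of the range), Krt7 was at 12.0 CPM in F319 ROV (0.595), and Epcam was at 2.12 CPM in F339 ROV (0.704). Chance alone gives such a gap in about 1 in 20 groups of normal values, and these levels are skewed. The gap was not computed for other genes, so whether 3 of 10 is more than usual in these data cannot be told. F319 ROV is also the line with 619 CPM of the summed mesothelial genes Msln, Upk3b, Upk1b and Lrrn4, and their part in the Krt7 and Krt8 levels was not tested.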

How the results depend on the processing

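Each culture gave 1 library, and 6 counts or fewer do not separate a silent gene from a rare one. In the uterus comparison, the genes called rose from 0 to 1297 with DESeq2 (3 of the 10 genes, of which Krt7 and Krt18 were chosen for this pattern and Elf3 was not) and to 2 with no filter (Tmem176b and Col10a1), and were 0 to 1 with 1 line left out (Col10a1 without F333 uterus). In the tumor comparison, DESeq2 called 406, and leaving out 1 line gave 0 to 1 (Col4a6 without F318 ROV). Of the 10 genes, 2 were called between library numbers with any line left out, 3 with no filter (Krt8 added), and 1 over ovary lines alone, where Krt7 turned to −4.14. The calls for Krt8 and Krt18 that use the uterus lines are descriptions and no test. The causes were not tested.

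With 1 line left out, Epcam ran from −5.86 to 0.71 in the uterus comparison, positive only without F333 uterus. Cdh1 ran there from −4.71 without F333 uterus to −0.98 without F319 uterus. Between library numbers, Krt19 ran from −1.04 (without F318 LOV) to 1.28 and Esrp2 from −0.59 (without F339 ROV) to 0.57. In the tumor comparison, Cdh1 ran from −3.83 to 0.40 and Elf3 from −1.30 to 0.98, with Cdh1 positive and Elf3 lowest without the F326 splenic line. Krt19 ran there from −3.80 without F361 to −0.44 without F319 ROV. In the uterus comparison, Krt7 ran from 2.66 to 5.58 with 1 line left out and was 7.22 with a term for the library number. The call for Gata3 was lost without F339 ROV. Of the 110 values, 75 were kept at more than 3 counts and 11 at 5 CPM. With the muscle counts left out of the totals 43 were kept at 1 CPM, and F361 then kept 7 genes, as F319 ROV did. Of the 5 genes most like Krt7, 1 was shared with log2(CPM + 0.1) and 0 with Spearman's rank correlation, and the same held for Krt8.

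The mouse was added as a block, an alternative chosen after seeing the data. The block leaves F319 alone to compare uterus with ovary, F326 alone to compare tumor with ovary, and F318 and F319 for the library numbers. The genes called were 0 for uterus and tumor and 3028 for library numbers. Epcam turned to 1.66 in the uterus comparison, where Krt7 was 0.19. In the tumor comparison, Krt7, Krt8 and Krt18 turned to 0.42, 2.27 and 1.26. Cdh1 went to −4.18, −4.78 and −3.17 in the uterus, library number and tumor comparisons, and Elf3 to −7.03, −6.41 and 3.08. Between library numbers, Krt7 and Krt19 turned to −1.97 and −0.48, and of the calls among the 10 genes only that for Krt18 was lost.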
